A study of Mus musculus with 4 samples.

Results

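The genes described here are 37 members of glycolysis and the hypoxia response, chosen by symbol from the deposited gene table of a single-cell RNA study of mouse colonic organoids. The list held 21 glycolysis genes and 16 hypoxia response genes, and all of them were found among 30326 gene symbols. Aldoa had a second row with 2 unique molecular identifiers (UMIs) in all cells, which was left out of the counts of members. No measured value entered the rule that chose the members, but the list was drawn up with earlier results of these data known. Each member was followed across the annotated cell classes, across the 4 libraries and among the single cells of one class, Progenitor.2.

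Glycolysis splits glucose into pyruvate and yields ATP without oxygen. Lactate dehydrogenase and a lactate exporter let it run on when pyruvate is not burned in mitochondria. In low oxygen the prolyl hydroxylases that mark HIF-1alpha for destruction lose activity, and the stabilized factor raises transcription of glucose transporters, most glycolytic enzymes and genes such as Bnip3 and Vegfa, while HIF-1alpha itself is controlled mainly at the protein level. The colonic surface is known to live at low oxygen tension, and the same targets also respond to inflammatory and growth signals.

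The organoids, gel-embedded cultures that grow from digested distal colon, came from mice 16 weeks old. The mice were wildtype or Tnfr2-/-, the latter without a working Tnfrsf1b gene (TNF receptor 2) in any cell of the body. In each genotype 1 culture received vehicle (untreated) and 1 received tumor necrosis factor (TNF, 20 ng/ml), which was added after passage 5 on day 1 and withdrawn on day 6, with harvest on day 7. The cells were freed with TrypLE, cleared of Annexin V-binding cells and sequenced as 3' libraries. Each group had 1 library, so no difference between groups could be tested against replicate spread, and culture, library and group cannot be told apart. How many mice gave the cultures was not given in the labels. The question of the design is how loss of TNF receptor 2 alters the response of colonic epithelium to TNF.

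The libraries held 2589, 1469, 1117 and 980 cells for wildtype untreated, for wildtype with TNF, for Tnfr2-/- untreated and for Tnfr2-/- with TNF, and this order holds for every set of 4 values that follows. Their UMI totals ranged from 44547639 to 87228093, and 4172 of 6155 cells were epithelial. Levels are UMIs of a gene scaled to 1000000 UMIs of the same cells (CPM), and the intervals given are exact Poisson 95% intervals, which cover counting error only. Summed levels of 6 epithelial markers in the epithelial cells were between 11391 and 14229 CPM, while 7 mesenchymal markers reached at most 17.7 CPM and 4 immune markers at most 1.79 CPM. Tnfrsf1b stood at 9.76, 14.0, 2.05 and 7.59 CPM over all cells and at 4.17, 12.1, 1.82 and 6.89 CPM over the epithelium. A 3' tag need not cover the disrupted part of the gene, so this does not check the genotype. There were 3 cell barcodes that occurred in 2 libraries.

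Class sizes and depth bear on the values that follow. Progenitor.2 made up 62 of 1128, 273 of 1163, 233 of 1023 and 716 of 858 epithelial cells, and Absorptive made up 319, 19, 11 and 1, so a value over all epithelium is set in part by these classes. In wildtype untreated absorptive cells the glycolysis members summed to 12100 CPM and the hypoxia members to 1830 CPM, above Progenitor.1 (7047 and 838 CPM) and Progenitor.2 (6808 and 1152 CPM) of that library. The 62 wildtype untreated Progenitor.2 cells stood apart from the others of that class, with a median of 15574.5 UMIs and a median mitochondrial share of 9.70%, against 33685 to 39167 UMIs and 4.21 to 6.14% in the other libraries. Their absorptive markers (Car1, Aqp8, Slc26a3 and Car4) summed to 3110 CPM, against 1449, 681 and 517 CPM in the others. The Mesenchyme-Ptges class of the same library was likewise shallow, with 34 cells at a median of 5755 UMIs and 16.7% mitochondrial UMIs.

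The promoters of members were read from RefSeq on build GRCm38.p6 as the 250 bases before the most upstream listed start site. They were searched for ACGTG, the core of the hypoxia response element, and its reverse complement CACGT. Of the 37 members 35 matched the promoter table, Ndrg1 and Bnip3l being the others. The letters occurred in 16 of 35 members (45.7%), against 4467 of 27025 promoters (16.5%). They occurred in 2 or more places in 6 members (17.1%), against 539 promoters (1.99%). Among the glycolysis members 8 of 21 (38.1%) held them, and among the hypoxia members 8 of 14 (57.1%). A match describes the letters of the window and is not a binding site. Because the members were chosen as genes of these pathways, the shares are a description. The promoters set beside them were not matched for base content or expression. The other 19 members held none, among them Gapdh and Higd1a, the most abundant member of each list. Shown are 7 of the members that held the letters, chosen for their roles from glucose entry to lactate export and from HIF to its feedback, with capitals marking the letters searched. Overlapping matches on both strands (CACGTG) count as 1 place. The windows are chrX:106186850-106187099 (plus strand) for Pgk1, chr7:46845554-46845803 (plus strand) for Ldha, chr7:138909507-138909756 (minus strand) for Bnip3, chr12:54203875-54204124 (minus strand) for Egln3, chr4:119108495-119108744 (plus strand) for Slc2a1, chr11:120948817-120949066 (plus strand) for Slc16a3 and chr12:73907617-73907866 (plus strand) for Hif1a.
Pgk1: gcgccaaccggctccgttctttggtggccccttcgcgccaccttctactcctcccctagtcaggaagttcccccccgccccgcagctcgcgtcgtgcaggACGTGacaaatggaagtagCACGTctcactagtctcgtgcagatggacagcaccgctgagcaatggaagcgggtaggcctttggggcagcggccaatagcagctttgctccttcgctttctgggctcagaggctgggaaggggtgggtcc
Ldha: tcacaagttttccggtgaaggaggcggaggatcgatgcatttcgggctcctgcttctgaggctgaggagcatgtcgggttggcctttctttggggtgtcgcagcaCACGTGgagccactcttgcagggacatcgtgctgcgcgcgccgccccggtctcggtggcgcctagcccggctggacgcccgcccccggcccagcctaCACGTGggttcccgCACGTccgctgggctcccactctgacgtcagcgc
Bnip3: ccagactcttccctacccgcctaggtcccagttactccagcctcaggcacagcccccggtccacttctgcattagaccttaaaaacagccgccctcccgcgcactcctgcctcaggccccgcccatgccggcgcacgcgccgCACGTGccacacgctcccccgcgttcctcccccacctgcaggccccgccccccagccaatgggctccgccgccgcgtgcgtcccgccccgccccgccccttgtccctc
Egln3: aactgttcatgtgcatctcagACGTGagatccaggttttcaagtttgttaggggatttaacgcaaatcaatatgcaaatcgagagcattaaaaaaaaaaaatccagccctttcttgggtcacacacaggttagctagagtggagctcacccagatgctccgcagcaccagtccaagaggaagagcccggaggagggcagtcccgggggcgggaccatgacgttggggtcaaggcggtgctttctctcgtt
Slc2a1: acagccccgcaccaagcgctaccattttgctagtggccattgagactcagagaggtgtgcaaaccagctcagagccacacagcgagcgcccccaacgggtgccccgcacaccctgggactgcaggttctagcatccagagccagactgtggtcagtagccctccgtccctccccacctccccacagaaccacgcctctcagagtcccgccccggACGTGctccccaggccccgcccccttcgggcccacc
Slc16a3: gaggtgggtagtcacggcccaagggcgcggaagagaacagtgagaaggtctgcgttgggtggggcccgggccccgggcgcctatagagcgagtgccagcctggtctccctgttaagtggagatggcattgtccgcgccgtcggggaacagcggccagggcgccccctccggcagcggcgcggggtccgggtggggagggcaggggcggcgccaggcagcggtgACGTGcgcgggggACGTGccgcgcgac
Hif1a: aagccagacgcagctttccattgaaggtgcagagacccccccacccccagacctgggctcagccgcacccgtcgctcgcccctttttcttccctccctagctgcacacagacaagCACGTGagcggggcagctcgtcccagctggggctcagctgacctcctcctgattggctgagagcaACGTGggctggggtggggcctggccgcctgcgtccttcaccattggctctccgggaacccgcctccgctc
Ldha held 3 places, Pgk1, Slc16a3 and Hif1a held 2 each, and Bnip3, Egln3 and Slc2a1 held 1 each. The place in Slc2a1 lay at -36 from the start site, those in Slc16a3 at -27 and -14, and the one in Egln3 at -229.

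Across all epithelial cells most members were highest in the Tnfr2-/- TNF library. The glycolysis members summed to 8551, 10007, 7590 and 18523 CPM, and the hypoxia members to 1165, 1746, 1192 and 3717 CPM. The Tnfr2-/- TNF library was highest for both sums, and the wildtype TNF library was next, with hypoxia members 0.58 above wildtype untreated on the log2 scale. The Tnfr2-/- TNF library had glycolysis members 1.85-fold and hypoxia members 2.13-fold above the wildtype TNF library. Every member except Hif1a, Pfkm and Pfkfb4 had its highest epithelial level there.

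Glucose entry and trapping depend on Slc2a1, the transporter GLUT1, and on the hexokinases Hk1 and Hk2. Slc2a1 (chr4:119108711-119137983, plus strand, GRCm38) stood at 44.9, 79.6, 61.3 and 253 CPM over the epithelium, with an interval of 248 to 258 in the Tnfr2-/- TNF library. Hk1 was at 76.9 and 82.9 CPM in the wildtype libraries and at 132 CPM in the Tnfr2-/- TNF library, with an interval of 48.1 to 52.0 CPM in untreated Tnfr2-/- cells, and Hk2 at 54.7, 105, 64.8 and 133 CPM. All 3 were highest with TNF in Tnfr2-/- cells, but for Hk2 the gap to the wildtype TNF library was small, at 0.34 on the log2 scale.

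Among the enzymes of the pathway the abundant members moved together. Gapdh (chr6:125161715-125166467, minus strand), which oxidizes glyceraldehyde 3-phosphate, stood at 2613, 2686, 2357 and 5452 CPM. Pgk1 (chrX:106187100-106203699, plus strand), which makes the first ATP of the pathway, was at 684, 979, 629 and 2012 CPM. For both genes the Tnfr2-/- TNF library was high and the other 3 were within 2-fold of each other. Aldoa (aldolase) was at 1051, 1171, 835 and 2093 CPM, Pkm (pyruvate kinase) at 894, 1239, 984 and 2169 CPM, and Pgam1 (phosphoglycerate mutase) at 480, 532, 558 and 1328 CPM. Gpi1, Tpi1 and Eno1, which make fructose 6-phosphate, glyceraldehyde 3-phosphate and phosphoenolpyruvate, reached 754, 885 and 441 CPM in the Tnfr2-/- TNF library, from 311, 375 and 215 CPM in untreated Tnfr2-/- cells. The phosphofructokinases commit sugar to the pathway. Pfkl and Pfkp reached 182 and 338 CPM, while Pfkm stayed between 3.62 and 3.72 CPM in all 4 libraries. Aldoc was at 22.9, 34.7, 17.1 and 62.8 CPM, and Eno2, the neuronal enolase, was at or below 0.176 CPM.

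Of the enzymes that set fructose 2,6-bisphosphate, the activator of phosphofructokinase, Pfkfb3 stood at 6.54, 25.8, 16.6 and 99.1 CPM and Pfkfb4 at 2.28, 3.17, 1.64 and 2.29 CPM. Pfkfb3 was lowest in wildtype untreated cells and higher with TNF in either genotype, and Pfkfb4 was low throughout. At the end of the pathway Ldha, which turns pyruvate into lactate, was at 1242, 1360, 886 and 1971 CPM. Slc16a3, the lactate exporter MCT4, was at 17.3, 53.9, 24.1 and 152 CPM, and Pdk1, which restrains pyruvate dehydrogenase, at 24.4, 36.4, 26.4 and 59.8 CPM. Slc16a3 had by far the wider range of these 3.

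Hif1a (chr12:73901375-73947530, plus strand), the transcript of the oxygen-regulated HIF subunit, went the other way. It was at 183, 155, 136 and 93.9 CPM, highest in wildtype untreated and lowest in Tnfr2-/- TNF cells, and no difference reached 2-fold. Egln3 (chr12:54178981-54203860, minus strand), a prolyl hydroxylase that HIF itself induces, stood at 95.3, 221, 115 and 573 CPM. Egln1, the main oxygen sensor, was at 70.6, 81.8, 72.6 and 159 CPM, the histone demethylase gene Kdm3a at 20.9, 30.6, 26.3 and 60.7 CPM, and Mxi1, a MYC antagonist, at 36.1, 53.4, 50.9 and 145 CPM. The transcripts of Egln1, Egln3, Kdm3a and Mxi1 were all highest in the library in which the Hif1a transcript was lowest.

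Bnip3 and Bnip3l code for mitophagy receptors. Bnip3 (chr7:138890836-138909519, minus strand) was at 69.6, 159, 92.5 and 492 CPM and Bnip3l at 134, 187, 141 and 406 CPM. Ndrg1 (chr15:66929318-66969640, minus strand), a stress-induced gene of differentiated epithelium, stood at 43.0, 151, 67.2 and 500 CPM. Its intervals of 41.2 to 44.8, 147 to 155, 65.0 to 69.5 and 493 to 507 CPM did not overlap. Vegfa, the angiogenic growth factor, was at 41.7, 87.9, 68.7 and 197 CPM, Adm (adrenomedullin) at 4.41, 13.9, 8.53 and 45.6 CPM and Ak4, a mitochondrial adenylate kinase, at 12.1, 24.8, 18.2 and 80.0 CPM. P4ha1 and P4ha2, subunits of collagen prolyl hydroxylase, reached 64.5 and 54.9 CPM in Tnfr2-/- TNF cells from 16.3 and 6.22 CPM in wildtype untreated cells. Ankrd37 was at 41.1, 46.2, 29.5 and 115 CPM. Higd1a, a mitochondrial protein of the respiratory chain, was at 345, 397, 273 and 623 CPM, and Ddit4, an inhibitor of mTORC1, at 45.4, 89.9, 65.7 and 108 CPM. Ddit4 was the target with the narrowest spread between genotypes under TNF, at 0.26 on the log2 scale.

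A gene was counted as higher or lower in a comparison of a pair of libraries when log2(CPM + 1) differed by at least 1 and 1 of the pair had at least 20 CPM. The rule involves no test, and a member that reached 20 CPM only in its higher library was more likely to be counted. The 4 comparisons share libraries and are not independent of one another. Between untreated genotypes 0 of 29 epithelial members were higher and 0 lower, against 2.42% and 3.59% of 6021 genes. Their median difference was 0.04 (all genes 0.11), and the sign of the members' median changed with TMM scaling (-0.06), median-of-ratios scaling (-0.08), a 50 CPM minimum (-0.04) and subtraction of chromosome medians (-0.12). With TNF, 18 of 34 members were higher in Tnfr2-/- than in wildtype and 0 lower, against 5.04% and 6.37% of 6073 genes, with a median of 1.03 (all genes -0.10). Of these, Pgam1 (1.32) and Mxi1 (1.42) lie on chromosome 19, whose genes had a median of 0.38, and Pfkfb3 lies on chromosome 2, with a median of 0.15. The count was 17 once each chromosome's excess over all genes was subtracted. In wildtype cells TNF went with 6 of 32 members higher and 0 lower, against 2.54% and 1.08% of 5833 genes, with a median of 0.52 (all genes 0.04). In Tnfr2-/- cells it went with 32 of 34 members higher and 0 lower, against 5.55% and 7.81% of 6143 genes, with a median of 1.47 (all genes -0.12). The members that were not higher in Tnfr2-/- cells were Hif1a and Ddit4.

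The epithelial counts moved with the class weights. When the levels of Progenitor.1 and Progenitor.2 were given equal weight in every library, the numbers of members higher became 9, 1, 14 and 5 for the same 4 comparisons. The number under TNF between genotypes therefore went from 18 to 1, and the number for TNF in Tnfr2-/- cells from 32 to 5. That weighting also leaves out the other 5 epithelial classes and gives the 62 shallow wildtype untreated Progenitor.2 cells the same weight as Progenitor.1, and the counts of 9 and 14 rest on those cells. Other sums also moved with the libraries. In the order of the libraries, 10 cell cycle genes summed to 666, 644, 975 and 300 CPM, 15 genes of oxidative phosphorylation to 10705, 8891, 8969 and 6486 CPM, and 12 genes of the amino acid and unfolded protein responses to 839, 1037, 1112 and 1817 CPM. The part of these in the members' levels was not tested.

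**Figure D1:**
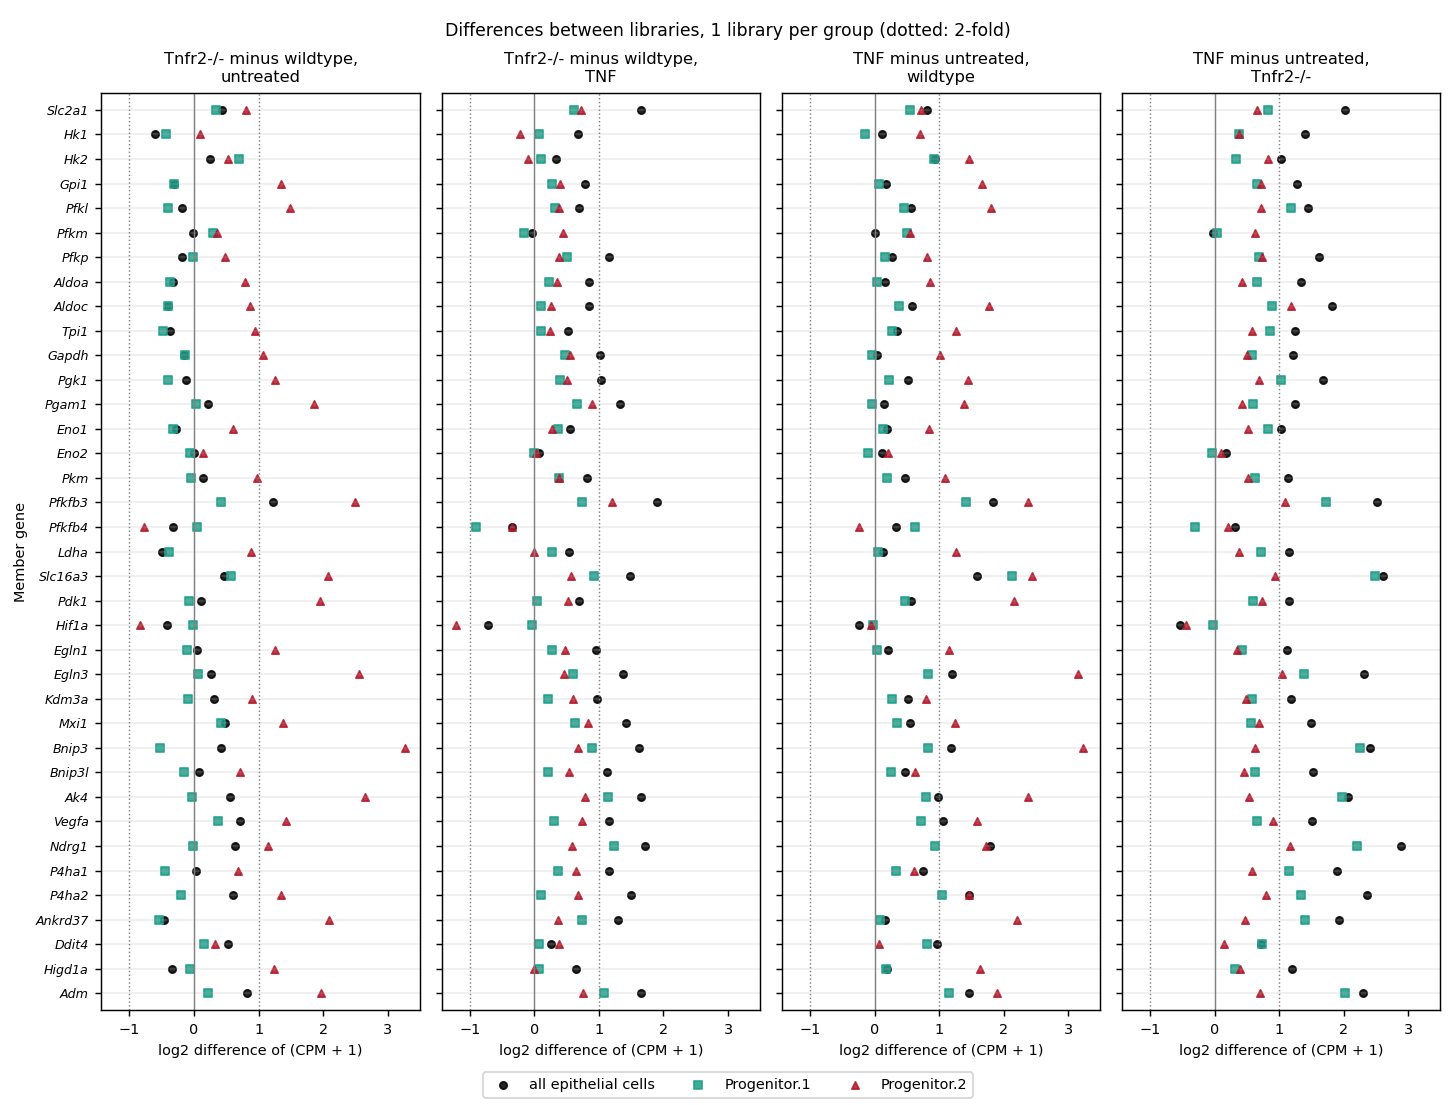
Log2 differences of CPM + 1 between libraries for each of the 37 members (rows) in 4 comparisons (panels), with black circles for all epithelial cells, green squares for Progenitor.1 and red triangles for Progenitor.2, and dotted lines at 2-fold. Each point is 1 library minus 1 other. Black circles lie past the upper line for 32 members in the last panel, where only 4 of the red triangles do so for members that reached 20 CPM.

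The members that were higher with TNF in both genotypes were Bnip3, Egln3, Ndrg1, Pfkfb3, Slc16a3 and Vegfa, 6 of 32 with enough UMIs in both pairs, as were 51 of 5545 genes. No member was lower in both, and 0 of 29 were past 2-fold in the same direction between genotypes in both treatments, where 64 of 5663 genes were higher and 80 lower, so that a count of 0 says nothing particular about the members. Of the other pathway genes, Ero1l, an oxidase of the endoplasmic reticulum that is also a HIF target, was higher with TNF in both genotypes, at 74.2, 213, 134 and 1057 CPM. Hmox1 (heme oxygenase) was higher with TNF in both and in Tnfr2-/- cells under both treatments, at 10.1, 23.5, 23.3 and 100 CPM over the epithelium. In every library it was also at least 2-fold higher in Progenitor.2 than in Progenitor.1. Within Progenitor.2 it was counted only between genotypes with TNF, and within Progenitor.1 only for TNF in Tnfr2-/- cells. Car9, a carbonic anhydrase used as a hypoxia marker, was lower in Tnfr2-/- cells under both treatments, at 54.4, 77.3, 4.54 and 14.9 CPM. With TNF in Tnfr2-/- cells, 3 of 13 other glycolysis genes and 8 of 19 other hypoxia genes were higher and none lower, against 5.55% and 7.81% of all genes. The median of the other glycolysis genes was 0.04 and their sum went from 1076 to 1025 CPM, while the median of the other hypoxia genes was 0.92 and their sum went from 1656 to 4100 CPM.

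In Progenitor.1, 10 cell cycle genes summed to 1063, 1062, 1280 and 1536 CPM. Its glycolysis members summed to 7047, 7519, 6046 and 9723 CPM and hypoxia members to 838, 1084, 822 and 1377 CPM, over 546, 335, 647 and 95 cells. Between untreated genotypes 0 of 25 members were higher and 0 lower, against 1.15% and 1.10% of 5913 genes. With TNF 2 of 31, Ak4 and Ndrg1, were higher in Tnfr2-/- cells and 0 lower, against 1.29% and 2.04% of 6066 genes. Ak4 was at 13.1 CPM in wildtype TNF and 30.0 CPM in Tnfr2-/- TNF cells, and Ndrg1 at 29.5 and 71.0 CPM. In wildtype cells TNF went with 1 of 28 members higher, Slc16a3 (4.23 to 21.8 CPM), and 0 lower, against 1.84% and 0.615% of 5855 genes. In Tnfr2-/- cells it went with 9 of 31 higher and 0 lower, against 1.08% and 0.933% of 6002 genes. These 9 were Pfkl, Pgk1, Pfkfb3, Slc16a3, Egln3, Bnip3, Ak4, Ndrg1 and Ankrd37. Bnip3 went from 23.7 to 116 CPM and Slc16a3 from 6.75 to 42.1 CPM, while Gapdh went from 1934 to 2863 CPM and stayed under 2-fold. The Tnfr2-/- TNF values rest on 95 cells.

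In Progenitor.2 the members were high in every library except wildtype untreated. Glycolysis members summed to 6808, 14980, 13932 and 19993 CPM and hypoxia members to 1152, 3120, 2644 and 4097 CPM. The wildtype untreated library was lowest for all members except Hif1a and Pfkfb4, and untreated Tnfr2-/- cells lay near wildtype TNF cells. The Tnfr2-/- TNF library was highest for every member except Hk1, Hk2, Pfkfb4, Hif1a and Higd1a. Mesenchymal markers summed to between 5.95 and 9.07 CPM and immune markers to at most 0.631 CPM in this class, while the cell cycle genes summed to 55.4, 91.5, 105 and 115 CPM.

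For Bnip3 in Progenitor.2 the levels were 35.7, 344, 354 and 547 CPM, with an interval of 27.3 to 46.0 in wildtype untreated cells. Egln3 stood at 51.8, 467, 311 and 641 CPM. The wildtype untreated cells were low for both genes, at a level close to that of Progenitor.1 in the same library (34.5 and 65.5 CPM). Pfkfb3 was at 8.34, 47.1, 51.5 and 111 CPM, Slc16a3 at 20.2, 114, 88.6 and 170 CPM, and Ak4 at 8.93, 50.5, 61.0 and 88.3 CPM. All 3 had the lowest level in untreated wildtype and the highest in Tnfr2-/- TNF cells. Gapdh was at 1997, 4037, 4176 and 5899 CPM, Pgk1 at 575, 1560, 1376 and 2200 CPM, and Ldha at 879, 2102, 1620 and 2109 CPM. For Ldha both genotypes stood at the same level with TNF, at a difference of 0.00 on the log2 scale. Ddit4 varied least of the targets, at 80.4, 84.4, 101 and 111 CPM.

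Between untreated genotypes 19 of 34 Progenitor.2 members were higher in Tnfr2-/- cells and 0 lower, against 4.32% and 3.66% of 5900 genes, with a median of 1.18 (all genes 0.05). They comprised 5 pathway enzymes (Gpi1, Pfkl, Gapdh, Pgk1 and Pgam1), Pfkfb3, Slc16a3, Pdk1, 3 genes of oxygen sensing and feedback (Egln1, Egln3 and Mxi1) and 8 targets. With TNF in wildtype cells 24 of 34 were higher and 0 lower, against 4.28% and 3.18% of 5749 genes, with a median of 1.41 (all genes -0.01). Both of these comparisons rest on the 62 shallow wildtype untreated cells. With the cells under 10000 UMIs left out of all libraries, the counts were 19 and 23. That filter keeps the same wildtype untreated library and acts on depth only. It leaves the mitochondrial share and the absorptive markers of its cells unaddressed.

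The comparisons that do not use that library gave few members. With TNF, 1 of 34 members was higher in Tnfr2-/- than in wildtype Progenitor.2 cells and 1 lower, against 2.99% and 4.93% of 5718 genes, and the members' median was 0.48 (all genes -0.04). The higher one was Pfkfb3 (47.1 and 111 CPM) and the lower one Hif1a (202 and 86.4 CPM). Pfkfb3 lies on chromosome 2, whose genes had a median difference of 0.19 in that comparison, against -0.04 for all genes, and it was under 2-fold once that excess was subtracted. Chromosome 19, with Pgam1 and Mxi1, had a median of 0.48 there and of 0.50 between untreated genotypes, where the members' count was 19 with and without the subtraction. With TNF in Tnfr2-/- cells 4 of 34 were higher, Aldoc, Pfkfb3, Egln3 and Ndrg1, and 0 lower, against 0.844% and 1.14% of 5687 genes, with a median of 0.60 (all genes -0.10). Aldoc went from 29.0 to 67.0 CPM, Egln3 from 311 to 641 CPM and Ndrg1 from 254 to 572 CPM. The count was 7 with TMM scaling.

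The Hif1a transcript differed in direction from most members. In Progenitor.2 it was at 210, 202, 117 and 86.4 CPM, higher in both wildtype libraries than in both Tnfr2-/- libraries, and the intervals of 189 to 233 and 194 to 210 CPM in the wildtype libraries did not overlap those of 111 to 124 and 83.2 to 89.5 CPM in the Tnfr2-/- libraries. In Progenitor.1 it was at 148, 145, 146 and 143 CPM, with intervals that overlapped in all 4 libraries.

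**Figure D2:**
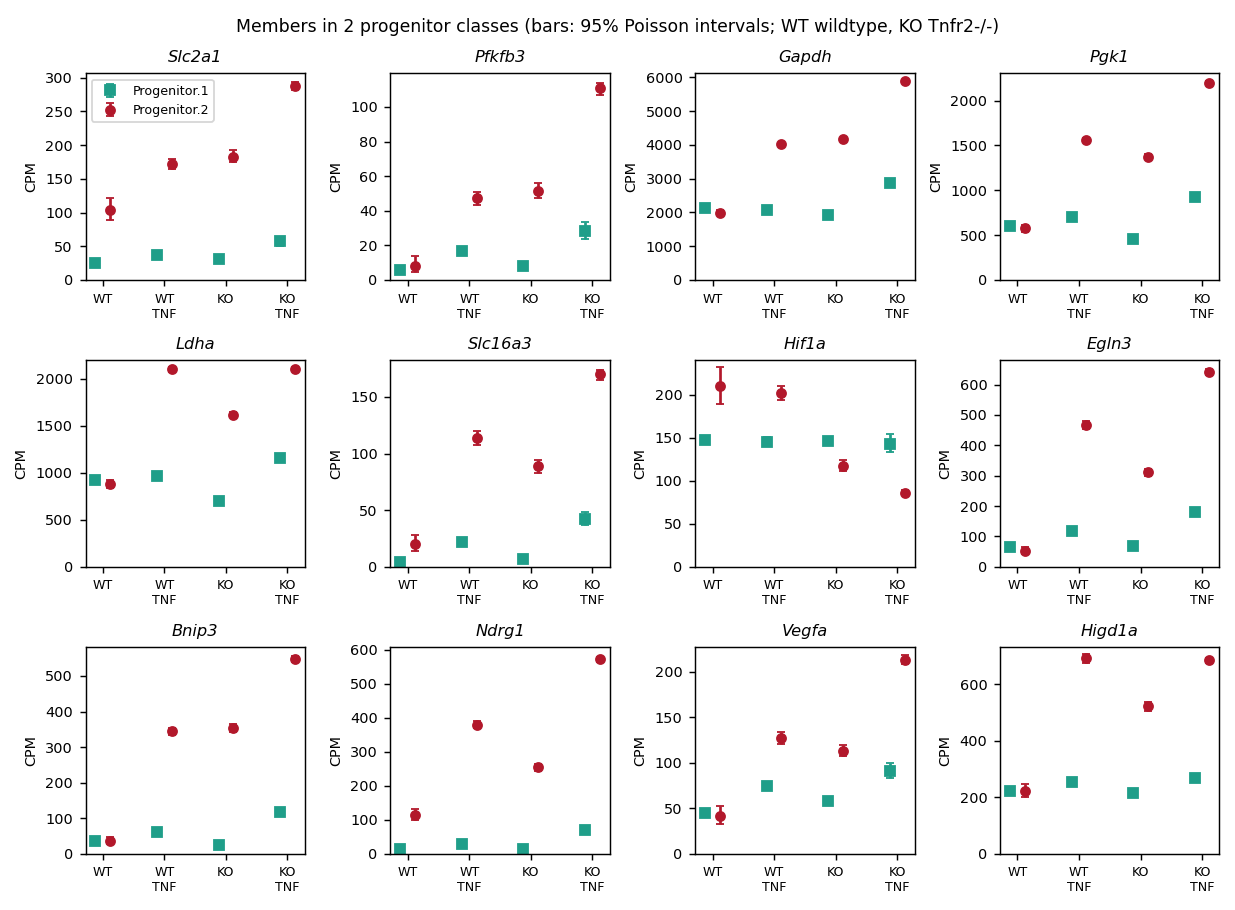
CPM of 12 members in Progenitor.1 (green squares) and Progenitor.2 (red circles) in each library, with 95% Poisson intervals as bars, where WT is wildtype and KO is Tnfr2-/-. Red points lie above green ones in the 3 right-hand positions of most panels, as for Bnip3 (344 against 61.9 CPM in wildtype TNF cells), and Hif1a runs the other way in Tnfr2-/- cells.

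Within a library, Progenitor.2 was compared with Progenitor.1. The authors clustered cells on all genes, so these differences are descriptions. In wildtype untreated cells 5 of 29 members were higher in Progenitor.2 and 1 lower, against 15.5% and 16.0% of 6240 genes, with a median of 0.05. The higher ones were Slc2a1, Hk1, Slc16a3, Ndrg1 and P4ha1, and the lower one was Pdk1 (24.6 and 8.93 CPM). With TNF in wildtype cells 21 of 34 were higher and 0 lower, against 12.1% and 15.3% of 6304 genes. In untreated Tnfr2-/- cells 26 of 34 were higher and 0 lower, against 11.9% and 11.5% of 6364 genes, and with TNF 24 of 34 were higher and 0 lower, against 11.5% and 14.8% of 6339 genes. The medians of these 3 were 1.19, 1.29 and 1.31. Ndrg1 had a wide gap in every library, at 2.87, 3.64, 4.03 and 2.99 on the log2 scale, and Slc2a1 held a gap of 2.03 to 2.49. Bnip3 differed by 0.05 in wildtype untreated cells but by 2.45, 3.85 and 2.22 in the others. The 5 members that were at least 2-fold higher in wildtype untreated Progenitor.2 cells were so in the other 3 libraries as well. The genes of oxidative phosphorylation summed to 6662, 7584, 6939 and 6151 CPM in Progenitor.2 and to 10017, 9479, 9455 and 8655 CPM in Progenitor.1, so they were lower in Progenitor.2 in every library.

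Across all classes, 27 sets of a class and a library held at least 20 cells. The highest level of a member fell in Progenitor.2 of the Tnfr2-/- TNF library for 13 members, in enteroendocrine cells of that library for 10 and in its Mesenchyme-Ptges cells for 7. Progenitor.2 led for the abundant enzymes, among them Gapdh (median over sets 1997 CPM, highest 5899), Pgk1 (575 and 2200) and Ldha (879 and 2109). Enteroendocrine cells led for Bnip3 (929 CPM), Vegfa (347 CPM), Pgam1 (1483 CPM), Pfkp (390 CPM), Ankrd37 (195 CPM), Aldoc (183 CPM) and Kdm3a (158 CPM). Mesenchyme-Ptges led for Ndrg1 (728 CPM), Slc16a3 (322 CPM), Hk1 (189 CPM), Hk2 (209 CPM) and the collagen hydroxylase subunits P4ha1 (447 CPM) and P4ha2 (297 CPM) and for Adm (273 CPM). Hif1a was highest in absorptive wildtype untreated cells (269 CPM) and lowest in enteroendocrine Tnfr2-/- TNF cells (63.6 CPM). Progenitor.3, a class of low depth, had the lowest level of many targets, such as Ndrg1 and Bnip3 in its 51 untreated Tnfr2-/- cells. Ndrg1 had 5 UMIs there (9.42 CPM, interval 3.06 to 22.0) and Bnip3 9 UMIs (17.0 CPM, interval 7.76 to 32.2). Both are near the floor, since 3 UMIs would be 5.65 CPM.

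**Figure D3:**
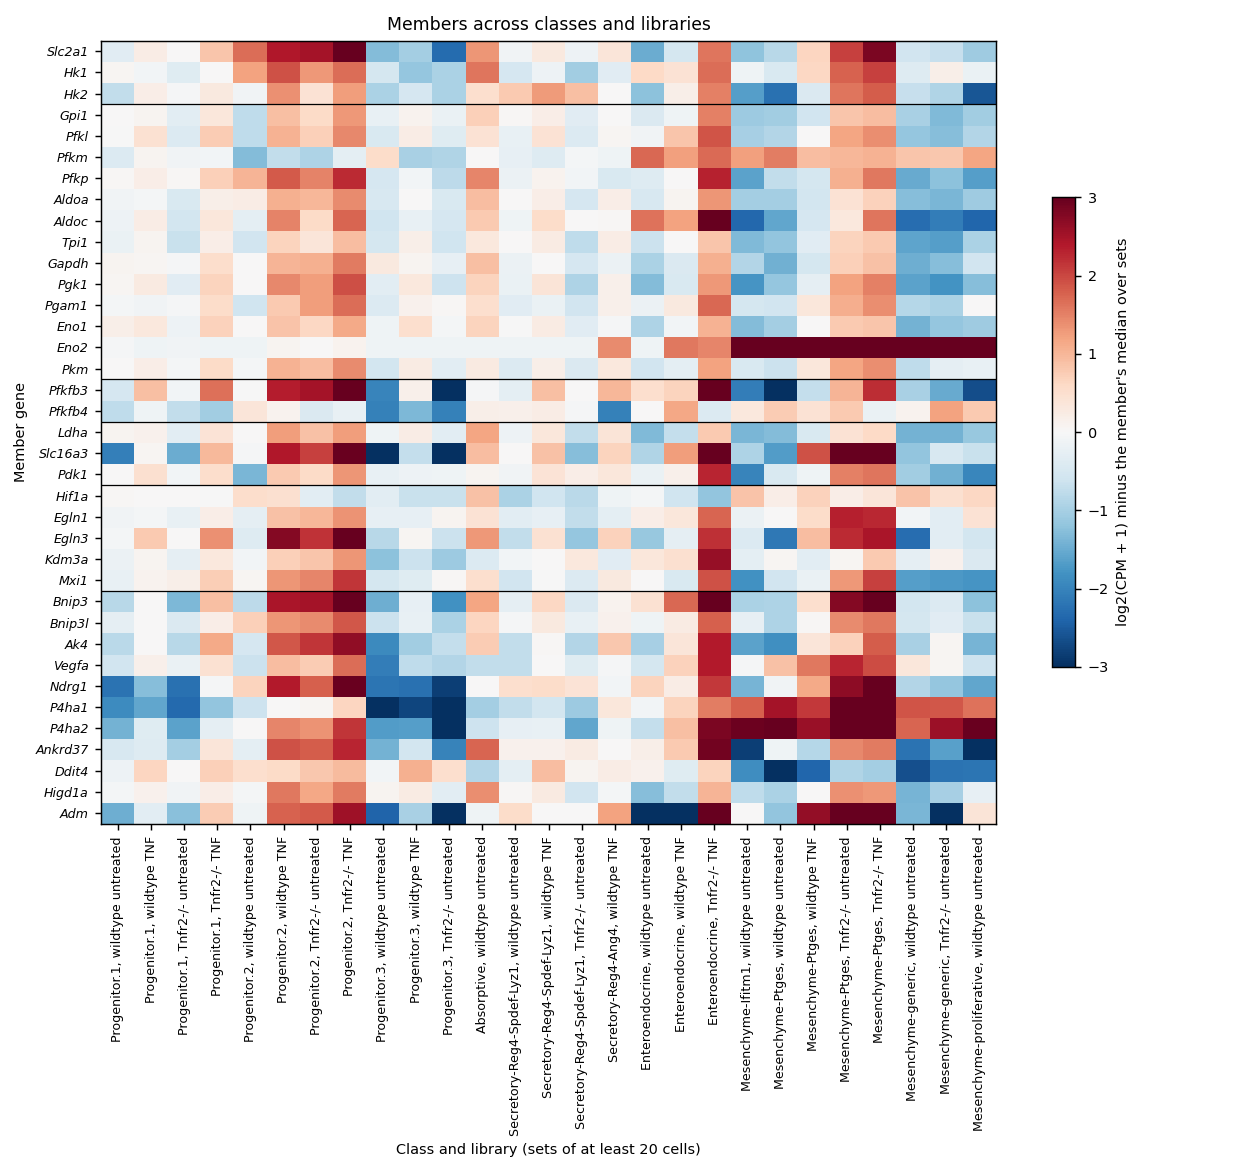
Heat map of log2(CPM + 1) minus the member's median over 27 sets, for the 37 members (rows, grouped by role with black lines) in each class and library with at least 20 cells (columns), with colours ending at 3 either way. Red columns stand out for the Tnfr2-/- TNF library in Progenitor.2, enteroendocrine and Mesenchyme-Ptges cells, while Hif1a is blue or pale there.

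Enteroendocrine cells, which secrete hormones, were few, with 33, 31, 18 and 27 cells, and the set of 18 was not given levels. Their glycolysis members summed to 4232 and 6074 CPM in the wildtype libraries and to 16613 CPM in Tnfr2-/- TNF cells, and their hypoxia members to 916, 1184 and 4046 CPM. Bnip3 was at 85.4, 207 and 929 CPM and Gapdh at 1041, 1470 and 4163 CPM in these 3 libraries. The Tnfr2-/- TNF cells were high and both wildtype libraries low. The enteroendocrine markers (Chga, Chgb, Pyy and Neurod1) summed to 108662, 107306 and 51616 CPM in the same sets.

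The mesenchymal class Mesenchyme-Ptges was the only mesenchymal class with 20 cells in all libraries, with 34, 304, 37 and 122 cells. Its glycolysis members summed to 3331, 6005, 12778 and 14883 CPM and its hypoxia members to 1150, 1698, 3970 and 4753 CPM. Both Tnfr2-/- libraries were high and both wildtype libraries low. Bnip3 was at 32.1, 88.3, 426 and 576 CPM, Ndrg1 at 67.1, 160, 472 and 728 CPM, and Gapdh at 736, 1392, 3281 and 3678 CPM. None of these 3 had overlapping intervals between genotypes, but the intervals cover counting error only. The share of all genes without overlap was not counted. Pfkfb3 had 0 UMIs in wildtype untreated cells, where 3 UMIs would be 8.76 CPM, and was at 4.72, 18.0 and 42.5 CPM in the others. Hif1a was at 166, 235, 166 and 187 CPM, and Eno2, nearly absent from epithelium, was at 40.9, 14.8, 46.8 and 41.5 CPM.

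Between genotypes with TNF 32 of 35 members were higher in Tnfr2-/- Mesenchyme-Ptges cells and 0 lower, against 6.13% and 8.52% of 6480 genes, with a median of 1.49 (all genes -0.20). The members that were not higher were Eno1, Hif1a and Vegfa. Untreated, 29 of 34 were higher and 0 lower, against 10.7% and 14.0% of 6791 genes, with a median of 1.93 (all genes -0.03), on 34 and 37 cells. Untreated Mesenchyme-generic cells, 393 wildtype and 51 Tnfr2-/-, lay closer together. Gapdh was at 728 and 820 CPM in them, Pgk1 at 188 and 164 CPM and Bnip3 at 41.6 and 46.5 CPM. Ndrg1 was at 38.8 and 32.0 CPM, while Egln3 was at 13.3 and 54.9 CPM. With TNF in wildtype Mesenchyme-Ptges cells 9 of 31 were higher and 1, Eno2, lower, against 13.4% and 11.0% of 6917 genes. In Tnfr2-/- cells 4 of 35 were higher, Aldoc, Pfkfb3, Adm and Ak4, and 0 lower, against 5.08% and 3.63% of 6220 genes. With TNF, 32 of 35 members were thus at least 2-fold higher in Tnfr2-/- cells of this mesenchymal class (6.13% of all genes). In Progenitor.2 it was 1 of 34, near the 2.99% of all genes. The members' median there was still 0.48 (all genes -0.04), and 30 of 34 were above 0. The difference between these classes was not tested. Epithelial markers in Mesenchyme-Ptges summed to 55.5, 201, 52.8 and 801 CPM, against 14229 CPM in the epithelium of the Tnfr2-/- TNF library, and P4ha1 and P4ha2 were higher in it (447 and 297 CPM) than in that epithelium (64.5 and 54.9 CPM). Cell cycle genes summed to 128, 556, 259 and 157 CPM in the class, and their part in the members' levels was not tested.

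Single Progenitor.2 cells were compared after each was thinned to 5000 UMIs, which kept 56, 270, 225 and 710 cells. The glycolysis members then summed to a median of 28.5, 69, 50 and 96 UMIs per cell, and the hypoxia members to 6, 13, 10 and 19. The 10th and 90th percentiles of the glycolysis sum were 15.5 and 51.5, 31.9 and 120, 22 and 122, and 55 and 140 UMIs. The untreated Tnfr2-/- cells were thus the most spread, from levels like those of wildtype untreated cells to levels like those of Tnfr2-/- TNF cells. Variance over mean, which is 1 for counting noise alone, was 9.77, 17.4, 27.3 and 12.3 for the glycolysis sum and 3.15, 8.48, 9.98 and 7.03 for the hypoxia sum. In Progenitor.1 the same ratio for the glycolysis sum was 6.12, 9.85, 7.08 and 8.60. Where cells differ, this ratio tends to rise with the mean. The means differed between libraries and classes, so the ratios do not rank their spread.

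Single members also ranged widely between cells. Egln3 had a mean of 0.268, 2.49, 1.60 and 3.21 UMIs per thinned Progenitor.2 cell and reached 3, 17, 13 and 19 UMIs in single cells. Bnip3 had a mean of 0.196, 1.69, 1.70 and 2.90 UMIs, with a 90th percentile of 1, 4, 5 and 6. Ndrg1 had a variance over mean of 3.27, 3.41, 4.63 and 4.90 and reached 40 UMIs in 1 cell of the Tnfr2-/- TNF library. Adm, a secreted peptide, had a mean of 0.125, 0.196, 0.240 and 0.328 UMIs and yet reached 12 and 14 UMIs in single cells of the wildtype TNF and untreated Tnfr2-/- libraries. Hif1a ran the other way, with a mean of 1.54, 1.01, 0.569 and 0.466 UMIs.

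Cells with more glycolysis UMIs also had more hypoxia UMIs. Pearson's r between both sums, each as log2(UMIs + 1) like the other thinned counts set against them, was 0.49, 0.70, 0.76 and 0.67 across the thinned Progenitor.2 cells of each library, and 0.32, 0.52, 0.31 and 0.51 across Progenitor.1 cells. Cells of a library share its preparation and depth, so r is a description and has no test. In the 56 wildtype untreated cells r was 0.07 when cells were thinned to 2000 UMIs, so that value depended on depth. The glycolysis sum had r of -0.20, -0.09, -0.36 and -0.19 with the mitochondrial share of a cell, 0.11, 0.19, 0.23 and 0.24 with its UMIs before thinning, and 0.15, 0.22, 0.14 and 0.21 with the oxidative phosphorylation sum. With 11 genes induced by dissociation r was 0.31, 0.31, 0.06 and 0.12, and for the hypoxia sum 0.36, 0.37, 0.10 and 0.17. With the mitochondrial share, the UMIs before thinning and the oxidative phosphorylation sum, the hypoxia sum had r between -0.21 and 0.03. These measures differ in kind and in counting noise, so the sizes of their r are not set against the r between both sums. The part of dissociation, depth or mitochondrial share in the r between both sums was not tested.

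**Figure D4:**
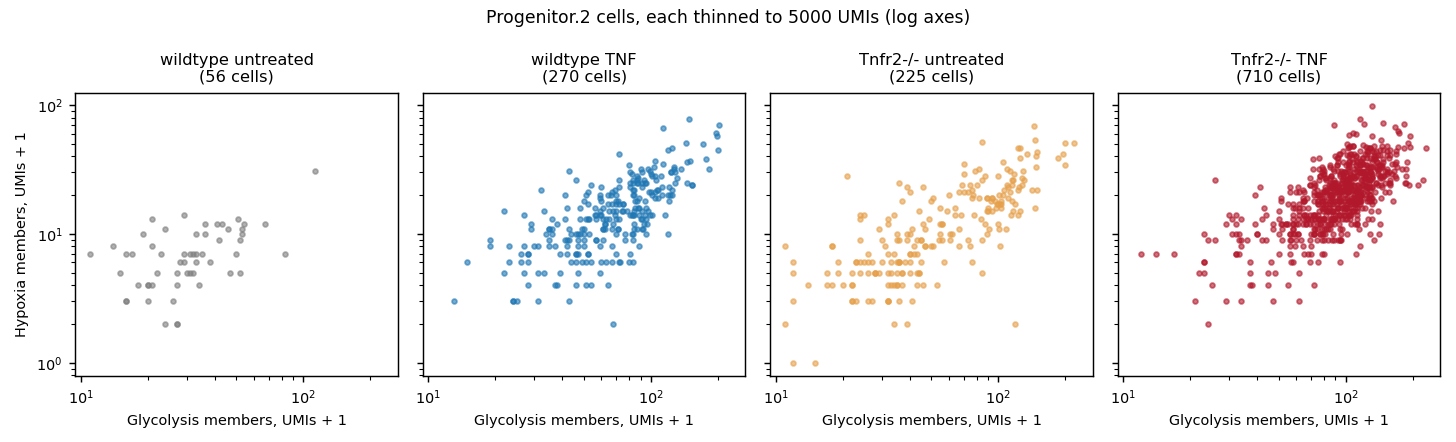
Summed UMIs + 1 of the glycolysis members (horizontal) and of the hypoxia members (vertical) in Progenitor.2 cells thinned to 5000 UMIs, on log axes, 1 point per cell and 1 panel per library. Points run along a diagonal with r of 0.49, 0.70, 0.76 and 0.67, and the untreated Tnfr2-/- cells spread over the whole range.

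Each member with at least 0.1 thinned UMI per cell in every library was also set against the rest of its own list. Of 15 such glycolysis members 13, 13, 15 and 14 had r of at least 0.2, against 7.60, 4.60, 3.32 and 1.76% of 4366 genes. Of 14 such hypoxia members 5, 8, 12 and 10 did, against 8.15, 2.86, 2.77 and 2.27% of the genes. Pgk1 ranked highest with the glycolysis sum, at r of 0.68, 0.67, 0.77 and 0.68, followed by Ldha at 0.45, 0.75, 0.79 and 0.59. Bnip3 ranked highest with the hypoxia sum, at 0.37, 0.58, 0.71 and 0.49. Kdm3a was at -0.09, 0.11, 0.24 and 0.02 and Ddit4 at 0.04, 0.12, 0.07 and 0.11. Hif1a had the lowest mean r of the hypoxia members, at -0.27, -0.11, -0.18 and 0.00. Of single pairs, Gapdh and Pgk1 had r of 0.51, 0.53, 0.62 and 0.55, and Aldoa and Gapdh 0.43, 0.55, 0.67 and 0.52.

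Outside the pathway lists, the genes most like the glycolysis sum across Progenitor.2 cells were Bsg, Tmsb10, 2610528A11Rik, AA467197 and Prelid2, with mean r over the 4 libraries of 0.46, 0.44, 0.44, 0.36 and 0.35. Those most like the hypoxia sum were Bsg (0.39), 2610528A11Rik (0.38), AA467197 (0.36), Tmsb10 (0.34) and Selenbp1 (0.30). Bsg, which codes for the chaperone basigin of the lactate transporters, led both rankings at r of 0.29, 0.43, 0.57 and 0.57 with glycolysis and 0.23, 0.38, 0.47 and 0.46 with hypoxia. Of the other hypoxia genes listed, Ero1l had r of 0.30, 0.59, 0.64 and 0.60 with the hypoxia members and Fam162a 0.25, 0.47, 0.54 and 0.42.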

How the data were processed

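Single-cell 3' RNA libraries of mouse colonic organoids were analysed from the deposited counts. Per the submitters' processing notes, the authors made UMI counts per gene and cell with Cell Ranger 5.0.0 on mm10. Per the study's methods they loaded the counts in monocle3 and removed cells under 100 UMIs and doublets of epithelial and mesenchymal cells. The sources used here do not give the annotation release. Deposited size factors and plotting coordinates were left aside. The authors' cell classes were used as deposited. The 35 cells without a class entered no comparison. Reads that map equally well to more than 1 place are not counted by Cell Ranger by default, which could lower genes with near-identical processed pseudogenes such as Gapdh.

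For each library, the UMIs of a gene were added up per class of at least 20 cells, and over the 7 epithelial classes together, and scaled to the total of those cells (CPM). Differences are of log2(CPM + 1), which understates changes of genes with low levels. A gene entered the 2-fold rule when at least 1 library of the pair had 20 CPM. With 1 library per group there is no test and no p-value, and intervals are exact Poisson 95% intervals, for counting error only. Spread was read after thinning cells to 5000 UMIs. The 2-fold rule was tested on drawn counts with known differences, which held counting noise only. Scrublet in scanpy 1.11.5 (expected rate 0.06) called 47 doublets, with 25 in the 35 unclassed cells, 4 epithelial and 2 in Progenitor.2. These were kept, and left out as an alternative. Other tools were Python 3.11.15, numpy 2.4.6, scipy 1.17.1, pandas 2.3.3 and matplotlib 3.10.9, with edgeR 4.0.16 and DESeq2 1.42.0 used for scaling factors only.

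All 37 members were named. Of 30 other glycolysis and 30 other hypoxia genes found in the gene table, those past 2-fold one way in both genotypes (TNF) or both treatments (genotype) were named, as were the 5 genes most correlated with each sum among Progenitor.2 cells. Fam162a was named after its value was seen. An item that this rule named is not reported here. Members and lists were chosen with earlier results of these data known. Coordinates are those of GENCODE M21 (GRCm38), in which 30317 identifiers were found and 43 were not. Promoters came from RefSeq. The alternatives were other pseudocounts (0.1 and 10), minimums (none and 50 CPM), TMM or median-of-ratios scaling, mean per-cell CPM, cells of at least 10000 UMIs, equal class weights, other thinning depths, and, chosen after seeing the data, subtraction of each chromosome's median. Mesenchyme-Ptges was also added as a set after seeing the data.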

Additional observations from a re-analysis of the deposited data

Results flagged for a closer look

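Hk1, a hexokinase, differed between genotypes in opposite directions in the epithelium. It was 0.61 lower on the log2 scale in Tnfr2-/- than in wildtype untreated cells, a difference of -0.61, and 0.67 higher with TNF. The levels were 76.9 CPM and an interval of 48.1 to 52.0 CPM untreated, and 82.9 and 132 CPM with TNF, and neither difference reached 2-fold. The minimum of 1.5-fold each way for listing such a gene was set after the files were seen, and the difference between the treatments was not tested. Within Progenitor.2 the differences were 0.09 and -0.22.

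The cells without a class, which no comparison used, also expressed the members. In the wildtype untreated library they had 6232 CPM of glycolysis members and 1026 CPM of hypoxia members over 31 cells. In the untreated Tnfr2-/- library 4 such cells had 5271 and 892 CPM. The median was 66566 and 88648 UMIs per cell, and 25 of the 35 were called doublets.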

How the results depend on the processing

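For the 2-fold rule, alternatives were read as counts and medians of members, so the direction of single calls was not followed. Equal weights for Progenitor.1 and Progenitor.2 gave 9, 1, 14 and 5 epithelial members higher (main 0, 18, 6 and 32), for Tnfr2-/- minus wildtype untreated, the same with TNF, TNF in wildtype and TNF in Tnfr2-/-. That setting changes the class weights, leaves out the other 5 epithelial classes and raises the weight of the 62 shallow wildtype untreated Progenitor.2 cells. Mean per-cell CPM gave 1 between untreated genotypes and 3 for TNF in wildtype. Without the expression minimum the untreated genotype count was 1. In Progenitor.1 the genotype count with TNF (main 2) was 1 at a pseudocount of 10 CPM, 1 at a minimum of 50 CPM and 0 with mean per-cell CPM. TNF in wildtype (main 1) gave 4 without a minimum, 0 at 50 CPM and 2 with mean per-cell CPM, and TNF in Tnfr2-/- (main 9) gave 5 at 50 CPM. In Progenitor.2 the genotype count with TNF (main 1) was 0 after subtracting chromosome medians, and TNF in Tnfr2-/- (main 4) gave 2 at a pseudocount of 10 and 7 with TMM. In Mesenchyme-Ptges TNF in wildtype (main 9) gave 21 with mean per-cell CPM, and TNF in Tnfr2-/- (main 4) gave 2 at a pseudocount of 10 and 2 at 50 CPM. Progenitor.2 against Progenitor.1 in wildtype untreated cells (main 5) gave 8 without a minimum. The cause of these moves was not tested.

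For the summed levels in Progenitor.2 (log2 difference), mean per-cell CPM gave 1.00, 0.43, 1.17 and 0.60 for glycolysis (main 1.03, 0.42, 1.14 and 0.52) and 1.00, 0.44, 1.22 and 0.67 for hypoxia (main 1.20, 0.39, 1.44 and 0.63). Without the most abundant member the last 3 glycolysis values were 0.37, 1.19 and 0.53, and hypoxia with TNF was 0.49 between genotypes and 0.68 in Tnfr2-/-. The correlation of both sums (main 0.49, 0.76 and 0.67 in wildtype untreated, Tnfr2-/- untreated and Tnfr2-/- TNF cells) was 0.07, 0.65 and 0.56 at 2000 UMIs, and 0.36 in wildtype untreated cells at 10000 UMIs. TMM scaling moved the members' epithelial median for TNF in Tnfr2-/- from 1.47 to 1.63.

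No paired analysis was possible because each group had 1 library. Pfkm, Pfkfb4 and Eno2 had low levels in the epithelium and stayed under the 20 CPM minimum there. Depth limited the wildtype untreated cells of Progenitor.2 and Mesenchyme-Ptges most. Biological spread between cultures is unknown.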
